A study of Oryza sativa with 2 samples.

Results

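MADS-box transcription factors are DNA-binding proteins named for a conserved domain at their amino end. In plants the MIKC type forms dimers and larger complexes, and combinations of its members set the time of flowering and the identity of meristems and floral organs. Other members act in roots, in seeds and in responses to stress. Jasmonic acid, a hormone of wounding and defence, also acts in rice flowers: there JAZ1 restrains MYC2, a factor that activates MADS1. The members were found by name. A gene belonged when its symbol or a synonym in the RefSeq table of assembly ASM3414082v1 was MADS, RMADS or FDRMADS followed by a number, and when an array feature was annotated to it alone. This gave 24 genes, each with 1 probe, of 15798 genes measured on 22575 spots. The RefSeq table names 7 more such genes with no feature of this kind, MADS20, MADS23, MADS27, MADS30, MADS33, MADS47 and MADS57, which were not analysed here. LOC4343851 carries MADS18, MADS28 and MADS2 among its synonyms and is called MADS18, while MADS2 stands for LOC4325001.

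The RNA came from rice (Oryza sativa) seedlings aged 7 days, grown in MS medium, either exposed to 5 µM jasmonic acid or left as controls. The labels name shoots in the titles and whole seedlings in the design text, and they differ on whether exposure lasted 7 days or began at that age. Array 1 carried control RNA in Cy3 and treated RNA in Cy5, and array 2 carried the same replicate with the dyes exchanged. The 2 arrays are therefore a technical dye swap and 1 replicate, with no test and no spread between plants. Each spot has 1 deposited log ratio per array. The ratios are not centred: on the log2 scale their medians were −0.30 for array 1 and −0.32 for array 2. Spots were paired with gene names by turning the spot grid in a way that was found from these values and that no label states, so every gene name depends on it. The deposited values are ratios and no levels, so the tissue could not be checked by levels of its defining markers. Only their spot brightness, a lower bound described below, is given. In such whole-tissue RNA, fewer cells of a type and less RNA per cell cannot be told apart.

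The labels do not say which channel is the numerator, so every value has 2 readings. If each column is the same dye over the other, the treatment is in the swap mean, which averages array 1 and array 2 with its sign turned. If they are treated over control on both arrays, it is in the plain mean of the arrays. A gene at least 2-fold below 1 on array 1 and at least 2-fold above 1 on array 2 is said to lie on the array 2 side, and the opposite case is the array 1 side. With Cy5 as the numerator the array 2 side is lower in treated seedlings, and with Cy3 it is higher. Each deposited value is also a ratio of whole numbers, and its reduced terms are given for the genes that passed 2-fold. The log2 geometric mean of these terms over the arrays served as spot brightness. It is a lower bound, since common factors cancel. In the brightest of 4 groups of spots by this measure, Pearson's r between the arrays over all genes was −0.66. That group held 51 genes on the array 1 side, 15 on the array 2 side and 0 lower or higher on both by 2-fold. The dimmest group had an r of 0.51, with 564 genes lower on both and 2 and 4 on the array 1 and array 2 sides. Which of the 2 readings holds was not tested.

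Of the 24 MADS-box genes, 1 lay on the array 2 side and 0 on the opposite side. A further 5 were lower on both arrays by 2-fold or more, and 0 were higher on both by that size. Among all genes the array 2 side held 0.165%, the array 1 side 0.5%, the group lower on both 3.85% and the group higher on both 0%. Among the 13939 genes with 1 probe, as all members have, 0.179% were on the array 2 side and 4.19% were lower on both. The gene on the array 2 side was MADS56, and the 5 lower on both were MADS2, MADS13, MADS14, MADS15 and MADS25. The other 18 passed 2-fold on both arrays in no pattern. The median swap mean of the members was 0.005 (log2; −0.005 with the sign turned), against 0.007 over all genes. The median plain mean was −0.41, against −0.26 over all genes, and 12 of the 24 lay below that value.

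**Figure D1:**
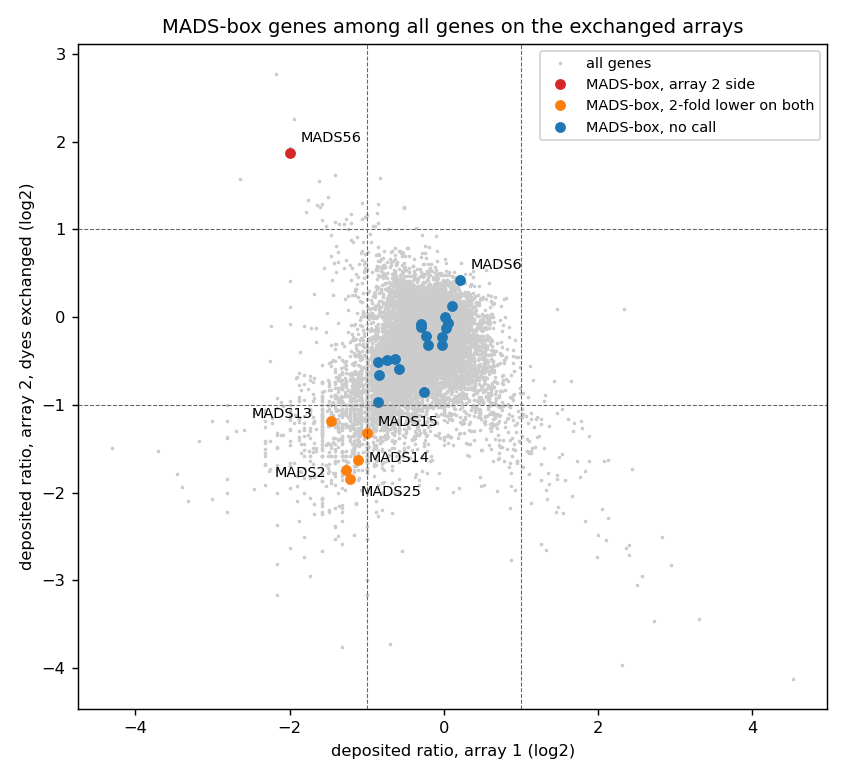
Deposited log2 ratio on array 1 (horizontal) and array 2 (vertical), with 1 point per gene: grey for all 15798 genes, coloured for the 24 MADS-box genes, and dashed lines at 2-fold. MADS56 stands alone at −2 and 1.87, 5 members lie below −1 or at −1 on both arrays, and the other 18 lie near the bulk of all genes.

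The SOC1-like members are regulators of flowering time. MADS56 (LOC4349237) delays flowering in long days and can bind MADS50, and MADS50 (LOC4331445), the rice counterpart of Arabidopsis SOC1, promotes it. MADS56 had a log2 ratio of −2 on array 1, from reduced terms of 1 over 4, and 1.87 on array 2, from 172 over 47. Its swap mean was −1.94 (1.94 turned), a size of 3.83-fold, and its plain mean was −0.06. The arrays therefore opposed each other, and only the swap reading gives a change of 2-fold. By size MADS56 ranked at 5 of the 26 genes on the array 2 side, whose median size was 2.62-fold. MADS50 had −0.24 on array 1 and −0.22 on array 2, with a swap mean of −0.01, so its arrays differed little. The difference between MADS56 and MADS50 was not tested.

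On array 1 the ratio of MADS56 came from much smaller reduced terms than on array 2. Spot brightness was 1 (log2) there and 6.49 on array 2, a gap of 5.49, where the median gap over all spots was 1.19 and 1.59% of spots had a gap of at least that size. Any pair of signals at 1 to 4 reduces to 1 over 4, so the array 1 brightness of MADS56 is only a lower bound. Its array 2 brightness was above the median of 5.99 over all spots on that array. The same ratio of 1 over 4 on array 1 occurred in 19 other genes with 1 probe. These were mostly dimmer on array 2, with a median brightness of 3.81 there, and 1 of them was at least as bright there as MADS56. Their log2 ratio on array 2 ranged from −2.63 to 1.92 with a median of −1.15. Of these 19, 14 were lower on both arrays, 3 were above 1 on array 2 and 1 was on the array 2 side. MADS56 was thus one of 2 genes with that array 1 ratio to lie on the array 2 side. Among the 2602 genes no brighter than MADS56, the array 2 side held 0.115% and the opposite side 0.0769%. The 8 spots that surround it on that grid had log2 ratios from −0.39 to 0.31 on array 1 and from −0.66 to 0.23 on array 2. None of these 8 was on the array 2 side, and their median brightness was 6.07.

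The AP1/FUL-like genes of class A are switched on in the shoot apex when rice turns to flowering. MADS14 (LOC4334140) had −1.12 on array 1, from 6 over 13, and −1.63 on array 2, from 10 over 31. MADS15 (LOC4342214) had −1 and −1.32, from 1 over 2 and 2 over 5, with a brightness of 1.08. Both were lower on both arrays, MADS15 exactly at the 2-fold line on array 1. Their plain means were −1.37 and −1.16, and their swap means 0.26 and 0.16. MADS18 (LOC4343851), the third measured member, stood apart with 0.03 and −0.12 on a spot of brightness 6.99. The 2 low members were on dim spots and the bright one was near 1.

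The class B genes specify lodicules, the rice counterpart of petals, and stamens. MADS2 (LOC4325001), a PI-like gene with a role in lodicules, had −1.26 on array 1, from 5 over 12, and −1.74 on array 2, from 3 over 10. Its plain mean was −1.50 and its swap mean 0.24. Its paralog MADS4 (LOC4338842) had −0.29 and −0.07, and the AP3-like MADS16 (LOC4342047), also named SPW1, had −0.02 and −0.23. In class B only the dimmest member was lower on both arrays, with a brightness of 2.70 against 6.44 and 5.62, unlike in classes C and D below.

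Class C and D genes specify stamens, carpels and ovules. MADS13 (LOC4351753), which is needed for ovule identity, had −1.46 on array 1, from 4 over 11, and −1.19 on array 2, from 18 over 41. Its plain mean was −1.32, its swap mean −0.14 (0.14 turned) and its brightness 3.75. MADS58 (LOC4338067), a class C gene that helps to end floral meristem growth, had −0.26 and −0.85, a swap mean of 0.29. MADS3 (LOC9271572), the class C gene of stamen identity, had −0.58 on each array, from 2 over 3 both times. MADS21 (LOC4324888), the class D relative of MADS13, had 0.02 and 0, from 78 over 77 and 1 over 1. The value of 1 over 1 shows what the brightness can hide, because any equal pair of signals reduces to it: MADS21 had a brightness of 6.28 on array 1 and 0 on array 2. All 4 of these genes were among the dimmest of 4 equal groups of spots by this measure. MADS13, the only one of them lower on both arrays, had the highest such value over the 2 arrays. On array 1 alone MADS21 was higher, with 6.28 against 2.73 for MADS13. The brightness of MADS21, MADS58 and MADS3 was 3.14, 2.60 and 1.29.

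The ANR1/AGL17-like and AGL12-like genes act outside the flower. MADS25 (LOC4335427), which promotes root growth in response to nitrate, had the lowest plain mean of the members at −1.54. Its log2 ratio was −1.22 on array 1, from 3 over 7, and −1.85 on array 2, from 5 over 18. Its swap mean was 0.31 (−0.31 turned), a size of 1.24-fold, which was second in size to that of MADS56. MADS26 (LOC4344493), a regulator of responses to pathogens and drought, had 0.11 and 0.13, from 352 over 327 and 691 over 633. It was the brightest member at 8.89, and its swap mean was −0.01 (0.01 turned). Its arrays differed by 0.02 on the log2 scale.

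The SEP-like genes of class E are partners of the other floral classes, and 5 were measured with none past 2-fold on both arrays. MADS1 (LOC4332059), which sets spikelet meristem fate and lemma and palea identity, had −0.85 on array 1 and −0.96 on array 2. Its swap mean was 0.06 and its plain mean −0.90, on a dim spot of brightness 3.74. MADS34 (LOC4334141), which acts in the inflorescence meristem and is the next gene to MADS14 in the RefSeq order, had −0.63 and −0.48. MADS8 (LOC4347517), which acts in the inner floral organs, had −0.74 and −0.49, with a swap mean of −0.13 (0.13 turned) and the lowest brightness of the 5, 2.26. Its close relative MADS7 (LOC4346134) had −0.21 and −0.31, and MADS5 (LOC4340218) had −0.30 and −0.11. All 5 ratios were below 1 on both arrays, as were those of 66.7% of all genes, and swap means ran from −0.13 to 0.06.

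The AGL6-like, SVP-like and B-sister genes showed small swap means as well. MADS6 (LOC4330328), also named MFO1, an AGL6-like gene of floral organ and meristem identity, had 0.21 and 0.42. That gave the highest plain mean of the members, 0.32, on a spot of brightness 8.84. Its paralog MADS17 (LOC4336762) had 0.06 and −0.06. MADS22 (LOC4330805) and MADS55 (LOC4340495), SVP-like genes that dampen brassinosteroid responses, had −0.02 and −0.31 and, for MADS55, −0.85 and −0.51. Their swap means of 0.15 and −0.17 had opposite signs. MADS29 (LOC4328443), a B-sister gene needed for seed development, had −0.84 and −0.66. MADS6 and MADS26 were the 2 members with a ratio above 1 on both arrays.

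**Figure D2:**
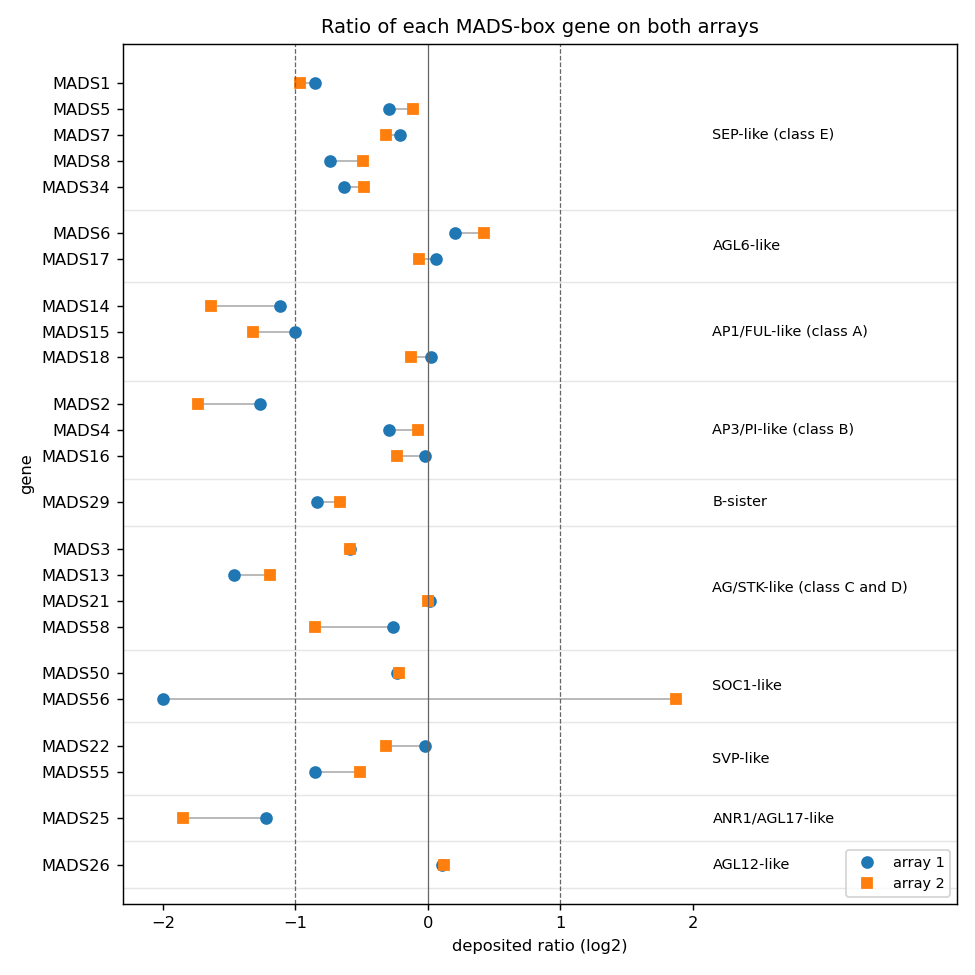
Deposited log2 ratio of each of the 24 MADS-box genes on array 1 (circles) and array 2 (squares), joined by a line and grouped in 10 subfamilies, with dashed lines at 2-fold. MADS56 spans −2 to 1.87, while the markers of MADS3, MADS26 and MADS50 nearly coincide.

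Apart from MADS56, the swap means of the members ran from −0.17 to 0.31. The standard deviation over genes was 0.43 for the 24 members, 0.14 without MADS56 and 0.28 for all genes. The median size of the swap mean was 0.10 for the 24 and 0.12 for all genes, and 94.0% of all genes had a size under 0.5, as 23 of the 24 members did. Most members were thus close to the bulk of all genes. Across the 24 genes Pearson's r between the arrays was 0.25 and Spearman's rho 0.67. Without MADS56, left out after its values were seen, they were 0.89 and 0.89 over 23 genes. Over all genes, with none left out, they were 0.24 and 0.29, but Pearson's r ranged from 0.51 in the dimmest of 4 groups by brightness to −0.66 in the brightest. The members are spread unevenly over these groups, so the values are not directly comparable. Genes are not independent replicates, and all points share the same RNA and arrays. Over the 24 members the plain mean went with brightness, with a Spearman correlation of 0.68, as it did over all genes with 0.71. The correlation of brightness with the swap mean was −0.22 over the members and −0.05 over all genes.

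Many of the members were on dim spots. Of the 24, 12 were in the dimmest of 4 equal groups of spots, against 21.1% of all genes in that group, and 6 were in the brightest group, which held 26.3% of all genes. All 6 members past 2-fold on both arrays were among those 12. Of the 12, MADS56 had a brightness of 1 on array 1 and 6.49 on array 2, and MADS21 had 6.28 and 0. In both the low value is a lower bound from small reduced terms on 1 array. Over all genes, the dimmest group held 564 of the 609 lower on both arrays and 4 of the 26 on the array 2 side. In the dimmest group 5 of 12 members were lower on both arrays, where 16.9% of all genes there were. Whether low signal had a part in these ratios was not tested. The brightest 6, MADS26, MADS6, MADS22, MADS17, MADS18 and MADS50, had plain means from −0.23 to 0.32 and swap means from −0.11 to 0.15. None of them passed 2-fold on either array.

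**Figure D3:**
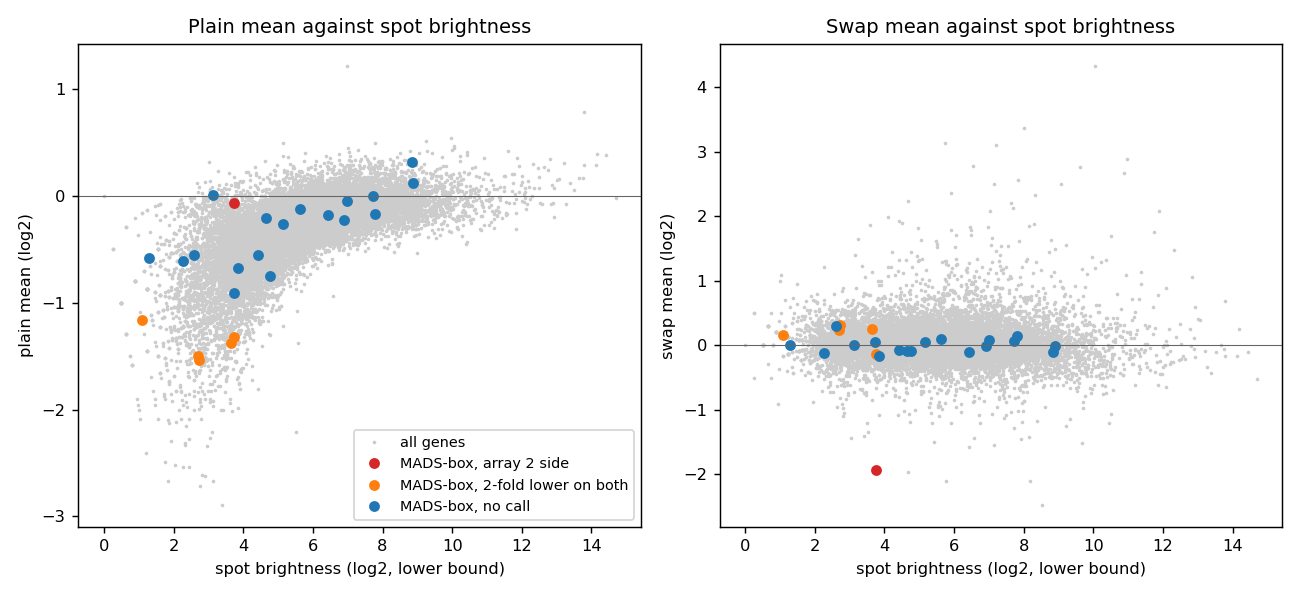
Plain mean (left) and swap mean (right), both in log2, against spot brightness in log2 units, with 1 point per gene in grey for all genes and in colour for MADS-box genes. The 5 members lower on both arrays have a brightness of 3.75 or less, and the swap mean of MADS56 is −1.94 where the other 23 lie between −0.17 and 0.31.

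Subtracting each array's median moved all values up by 0.30 on array 1 and 0.32 on array 2. Then 0 of the 24 members were lower on both arrays, against 1.16% of all genes, and MADS56 alone was on the array 2 side, against 0.139%. Centred, MADS2 had −0.96 and −1.42, MADS25 had −0.92 and −1.53, and MADS14 had −0.82 and −1.32. MADS15 had −0.70 and −1.005, and MADS13 had −1.16 and −0.87. Each of the 5 thus kept a ratio below −1 on 1 array only. MADS56 had −1.70 and 2.19 after centring, and its swap mean stayed at −1.94.

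Of the other flowering time and inflorescence genes, 22 were measured, and 1 of them passed 2-fold on both arrays in any pattern, where 4.52% of all genes did. It was LOC4336518, which carries the names YAB3 and YAB5 of the YABBY family of leaf and floral organ factors, with −2 and −1.13 on a dim spot. The largest other swap means were those of the AP2-type spikelet meristem gene IDS1, with 0.54 and −0.61, and of YAB1, with 0.10 and −0.70. They were followed by LFL1, a B3 factor that represses flowering, with −0.65 and −1.22, and the phytochrome gene PHYC, with 0.26 and −0.26. The median swap mean of the 22 was 0.05 (−0.05 turned) and the median plain mean −0.36. None of the 12 flowering time genes passed 2-fold on both arrays. MADS56 had no counterpart of its size among these 22 genes, whose swap means ran from −0.44 to 0.57. Such a size was rare in general: 24 of all 15798 genes, MADS56 included, had a swap mean at least as large in size.

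**Figure D4:**
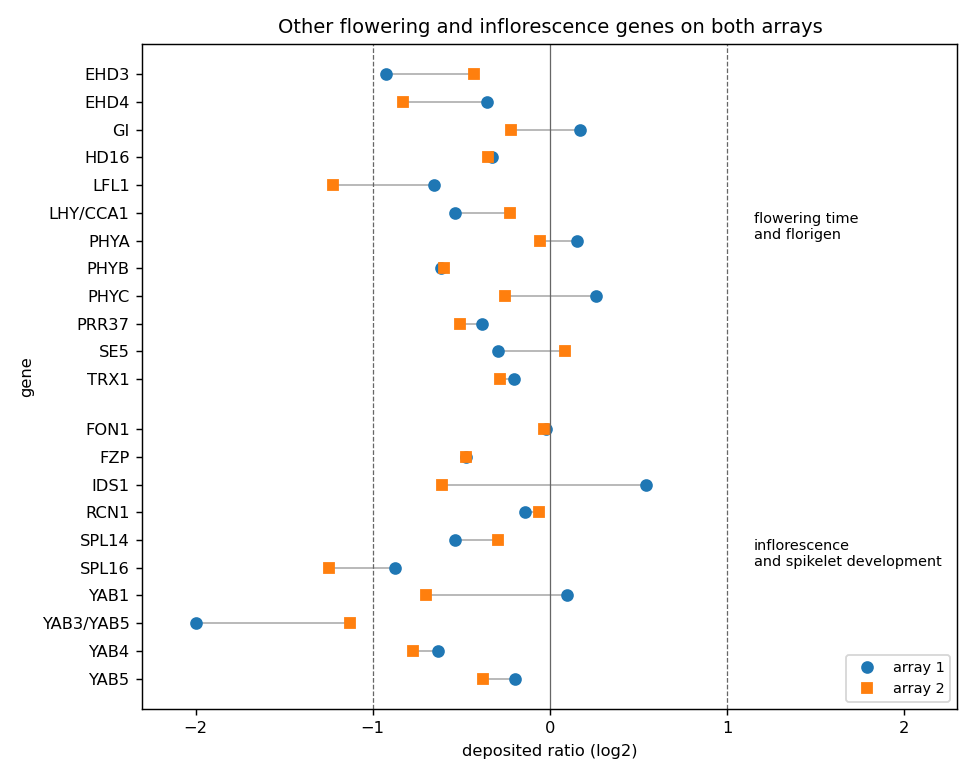
Deposited log2 ratio on array 1 (circles) and array 2 (squares) of 12 flowering time genes and 10 inflorescence and spikelet genes that are no MADS-box genes, with dashed lines at 2-fold. The widest span in which array 1 is the higher is that of IDS1, from −0.61 to 0.54, and the gene named YAB3 and YAB5 lies below −1 on both arrays.

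Of the jasmonate factors tied to MADS1, 2 genes carry the name JAZ1. LOC4337240 had 0.89 and −0.52, a swap mean of 0.71 on a bright spot, and LOC4348533 had 0 and −1 on a spot of brightness 0.25. The receptor gene COI1B had −0.06 and 0.003. Under the names MYC2, COI1A and EG1, also on that list, no gene was measured. MADS1 itself, as given above, had a swap mean of 0.06. Among 6 leaf markers 0 passed 2-fold on both arrays, with swap means from −0.65 to 0.69. Their median brightness was 12.04, against 5.47 over all genes. Among 7 root markers 2, HKT1;5 and LSI2, were lower on both arrays, against 3.85% of all genes. Both were on dim spots, with a brightness of 1.83 and 2.74, in the group where 16.9% of all genes were lower on both. Of the 7, 5 were below 1 on both arrays. The brightest, LSI1 at 8.98, had 0.17 and −0.07, and YSL15, at 6.09, had 0.06 and −0.12. Swap means of the 7 ran from −0.14 to 0.50, and their median brightness was 4.33. The part of root or leaf tissue in the members' values was not tested.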

How the data were processed

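The 2 arrays compared treated with control RNA with exchanged dyes, and their number limits the precision. The authors deposited log10 ratios, 1 per spot and array. Per the labels, spots were read with a GenePix scanner and its software, and normalized in GeneSpring version 4; how background was corrected or spots filtered is not given in the sources used here. Scale is known, the columns are not centred, and the direction is not stated. Values were multiplied to log2. The simplest fraction within 6e-10 (log10) gave the whole-number terms. Spot i was paired with its feature through the grid named in the report, and genes with several probes took their mean. Calls needed 2-fold on each array. No p-value was computed. Members and lists were chosen with earlier results of these data known. All members are named, grouped by subfamily from general knowledge. Of the other lists, those past 2-fold on both arrays are named. So are the 5 flowering or inflorescence genes with the largest swap means and all measured jasmonate factors. Steps were tested on simulated data, with planted changes larger than 2-fold and noise that did not depend on brightness. That checks the code and not the calls made here. Alternatives were centring, scaling, 1.5-fold and 3-fold, leaving out dim spots, the brightest probe, an array alone and names by spot number. Python 3.11.15, numpy 2.4.6, pandas 2.3.3 and matplotlib 3.10.9 were used.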

Additional observations from a re-analysis of the deposited data

How the results depend on the processing

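The 1 gene on the array 2 side, MADS56, stayed 1 under centring, 1.5-fold, 3-fold and the brightest probe. The count was 0 without the dimmest of 4 groups of spots and 0 with names by spot number. That dimmest group holds MADS56, whose brightness was 1 on array 1 and 6.49 on array 2. The 5 genes lower on both arrays became 0 centred, 8 at 1.5-fold, 0 at 3-fold, 0 without the dimmest group and 3 with names by spot number. The 0 on the array 1 side became 2 with names by spot number, and stayed 0 under the other alternatives. The 0 higher on both arrays did not change under these alternatives. The median plain mean of −0.41 was −0.099 centred, −0.18 without the dimmest group, −0.49 with names by spot number and −0.44 with array 1 alone. The median swap mean stayed between −0.0091 and 0.085, except that an uncentred array alone gave −0.44 for array 1 and 0.40 for array 2 turned. The 1 gene of the flowering and inflorescence list became 0 centred, 5 at 1.5-fold, 0 at 3-fold and 0 without the dimmest group. Names by spot number put other spots under the members' names, centring shifts every value, and leaving out dim spots removes 12 of the 24 members; the cause of other changes was not tested. Brightness is a lower bound from reduced terms, and signal itself was not measured. No paired analysis was possible because both arrays hold a single replicate.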
